A study of Mus musculus with 4 samples.

Results

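Muscle fibres and myoblasts release hormones and cytokines that act on the muscle itself and on other organs. The genes described here are 9 of the 52636 gene rows in the count table: Apln, which encodes the peptide hormone apelin, its receptor gene Aplnr, and Fgf21, Gdf15, Fndc5, Metrnl, Mstn, Il15 and Bdnf. They were chosen by symbol, and each symbol had 1 row. Polyadenylated RNA was sequenced from C2C12, an immortalised mouse myoblast line. The 2 control and 2 sesaminol libraries came from cells held up to 8 days in adipogenic medium. Treated cells also received sesaminol, a sesame lignan, at 50 µM. All 4 libraries are of 1 cell line, and the labels do not say whether the libraries of a group were grown as separate cultures. The p-values therefore reflect only how these samples spread, which may be technical.

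Apelin binds a G protein-coupled receptor and is known for actions on blood vessels, the heart and glucose uptake in muscle, and Apln is known to be induced by hypoxia. FGF21 and GDF15 are circulating hormones of metabolic and cellular stress whose genes respond to the transcription factor ATF4. Fndc5 encodes the membrane precursor of irisin, Metrnl encodes meteorin-like, a hormone of exercised muscle and fat, myostatin (Mstn) restrains muscle growth, interleukin 15 is a cytokine of muscle and of lymphocytes, and BDNF is a neurotrophin that contracting muscle also makes.

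The libraries held 10283135 to 24362899 counts. Sesaminol replicate 2 stood apart in having a count for 31253 genes, against 26531 to 27336 in the other 3 libraries, and it was the deepest library. Levels are given as CPM, the reads of a gene scaled to a common library size, with TMM, a trimmed-mean normalisation. A count of 0 allows a level of up to 3 counts, which is 0.298 and 0.219 CPM in control replicates 1 and 2 and 0.201 and 0.112 CPM in sesaminol replicates 1 and 2. These limits cover counting error only and would be 0.596, 0.438, 0.402 and 0.224 CPM if the mates of a read pair were counted singly. The defining muscle genes Des, Myod1, Myog, Myh3 and Ckm were present in every library. Their summed levels were 7668 and 8052 CPM in controls and 4505 and 3378.5 CPM with sesaminol. At an edgeR adjusted p under 0.05, 4 of the 5 fell, beside 3.24% of all genes tested that fell. Des, a large part of each sum, was at 3232 and 3044 CPM in controls. It was lower with sesaminol, at 2781 and 1582 CPM, but did not pass. Ckm shares exons with A930016O22Rik. The 5 adipocyte markers, Adipoq, Plin1, Cidec, Lep and Fabp4, summed to 7.15 and 3.94 CPM in controls and 3.35 and 3.21 CPM with sesaminol. Of the 2 that were tested, 0 passed.

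Of the 9 hormone genes, 7 passed the filter on low counts, and Aplnr and Mstn did not. Apln was much higher with sesaminol, Fgf21 and Fndc5 were several-fold lower, and the groups differed by less than 1.5-fold for Gdf15, Metrnl, Il15 and Bdnf. Apln and Fgf21 had stood out in earlier results of these data, so their values are described without a test. Of the other 5 tested genes, 1 (Fndc5) fell and 0 rose at an edgeR adjusted p under 0.05, where 5.95% of the 18998 genes tested passed in either direction. The groups did not overlap for 3 of these 5 genes, beside 47% of all genes tested. In RNA from whole cultures, fewer cells that express a gene and less of its RNA per cell cannot be told apart.

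**Figure D1:**
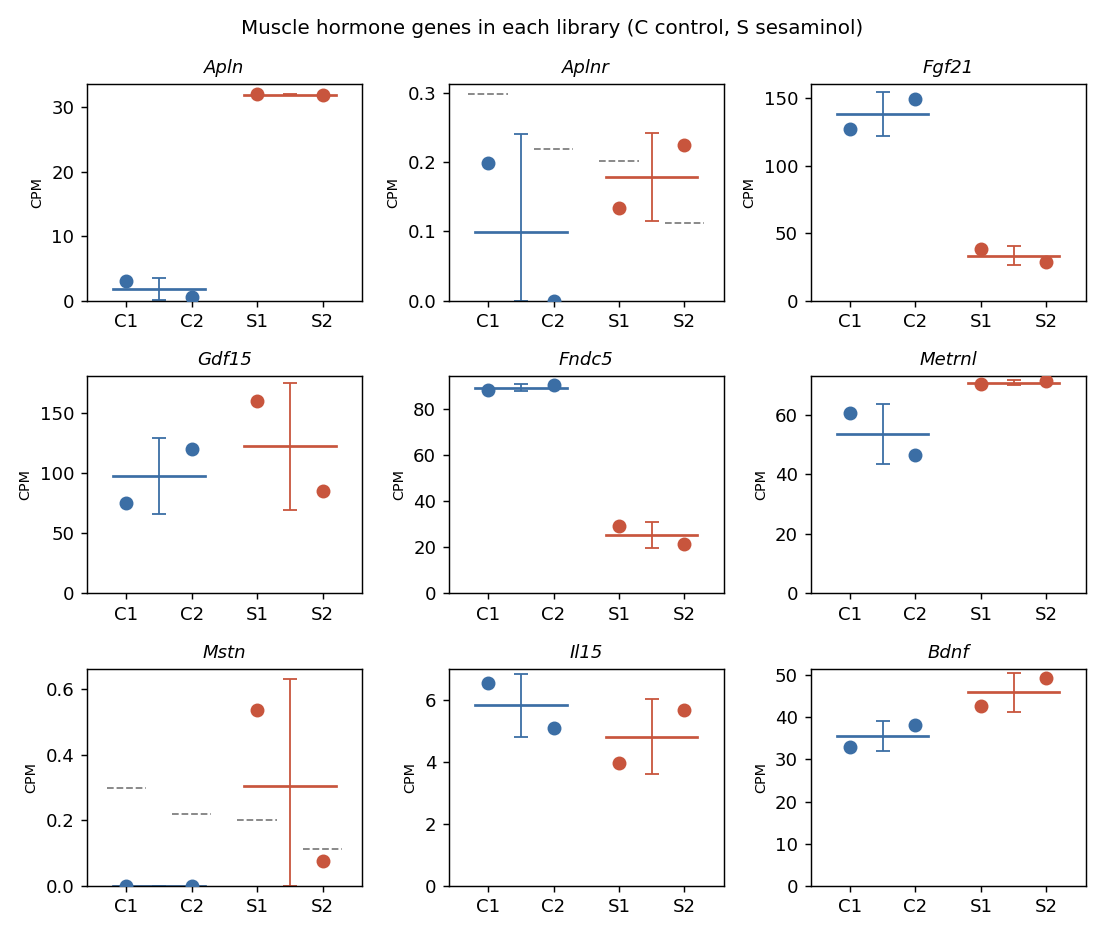
Level of each hormone gene (y axis, CPM, each panel with its own scale from 0) in control replicates 1 and 2 (C1, C2, blue) and sesaminol replicates 1 and 2 (S1, S2, red); points are libraries, horizontal lines group means, bars ± SD (n = 2), and grey dashes for Aplnr and Mstn the level of 3 counts. The sesaminol libraries sit at 32.0 and 31.8 CPM for Apln against 2.98 and 0.584 CPM in controls, and below both controls for Fgf21 and Fndc5.

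Apln (ENSMUSG00000037010) lies on chromosome X at 48025146 to 48034853 (GRCm38, minus strand). It had 30 and 8 counts in control replicates 1 and 2 and 478 and 854 counts in sesaminol replicates 1 and 2. These correspond to 2.98 CPM (95% exact Poisson interval 2.01 to 4.25) and 0.584 CPM (0.252 to 1.15) in controls, and to 32.0 CPM (29.2 to 35.0) and 31.8 CPM (29.7 to 34.0) with sesaminol. The sesaminol libraries were alike and both far above the controls, while the controls differed from each other by more than their intervals. The log2 fold change was 4.25 ± 0.48 (SE), a 19.1-fold higher level. Its size rested on the controls: it was 53.7-fold without control replicate 1 and 10.7-fold without control replicate 2, but 18.8-fold and 19.5-fold without either sesaminol library. If mates were counted singly, the interval of control replicate 2 widens to 0.159 to 1.5 CPM and that of control replicate 1 to 1.67 to 4.91 CPM, which still did not meet.

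**Figure D2:**
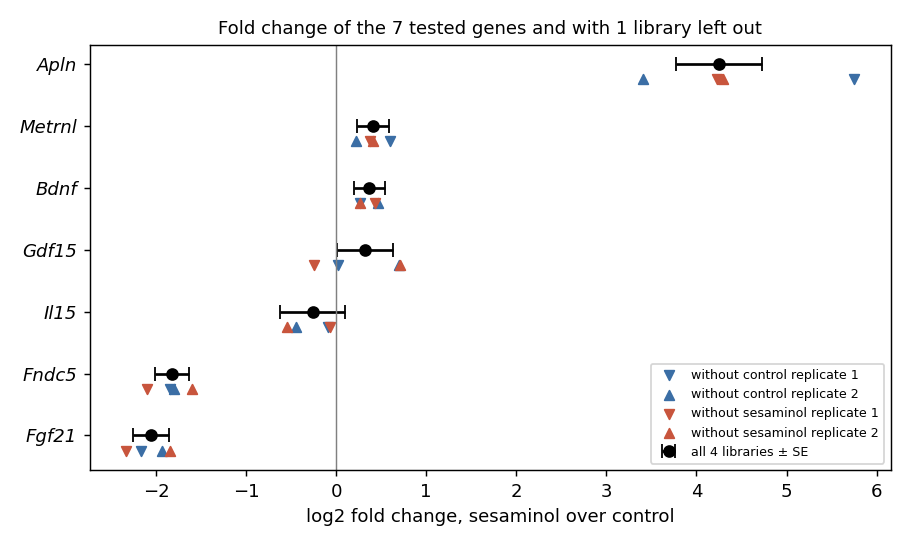
Log2 fold change, sesaminol over control (x axis), of the 7 tested hormone genes (y axis), with all 4 libraries (black circles, ± SE) and with 1 library left out (triangles). Apln moves from 3.41 to 5.75 according to which control is left out, and Gdf15 lies on both sides of 0.

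The 250 bases before the start of Apln (RefSeq, GRCm38.p6, chrX:48034854-48035103, minus strand) are shown because Apln had the widest difference between the groups among the hormone genes. Capitals mark the GC box GGGCGG, searched on both strands.
Apln: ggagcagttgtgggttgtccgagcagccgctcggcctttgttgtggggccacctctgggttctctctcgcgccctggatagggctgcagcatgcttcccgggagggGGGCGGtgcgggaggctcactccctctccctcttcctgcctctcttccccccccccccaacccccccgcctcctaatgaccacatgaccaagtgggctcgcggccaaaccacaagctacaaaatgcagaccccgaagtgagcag
The GC box lies at positions -144 to -139 from the start and is found in 32.7% of the 32851 RefSeq promoter windows of this length. The core words of the hypoxia response element, ACGTG and GCGTG, the ATF4 response element TGATGNAA (both strands) and the TATA box TATAAA (gene strand) had no match in this window. Either hypoxia word is present in 38.6% of the windows.

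The apelin receptor gene Aplnr (ENSMUSG00000044338, chromosome 2, 85136225 to 85139923) was at or near the limit of detection in every library. It had 2 and 0 counts in controls and 2 and 6 counts with sesaminol, or 0.199, 0, 0.134 and 0.224 CPM. Only sesaminol replicate 2 exceeded its own 3-count level, and it did not if mates were counted singly. No difference was detectable at this depth. The alternative ligand gene Apela (4, 4, 0 and 4 counts) was also under the filter and shares exons with Gm45886, whose count was 367% of its own. None of the 11 other tested genes of apelin processing and signalling passed by edgeR or DESeq2. Their edgeR adjusted p ran from 0.218 to 0.98, with 1 at an unadjusted p under 0.05. Some passed as higher without sesaminol replicate 1, a fit in which more of all genes passed too. Over these 11 genes the median log2 fold change was 0.17, against 0.02 over all genes tested. They include Gnai2, the most abundant of the inhibitory G protein alpha subunits here in CPM, at 606 and 567 CPM in controls and 664 and 490.0 CPM with sesaminol.

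Apln is also a gene of endothelial cells. The 6 endothelial markers summed to 8.64 and 6.86 CPM in controls and 5.56 and 8.65 CPM with sesaminol, a range in which the groups overlap. None was at 0 in all libraries, 0 of the 4 that were tested passed by edgeR and 0 had an unadjusted p under 0.05. Cdh5, the cadherin that defines these cells, had 8, 6, 10 and 16 counts.

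Of 19 hypoxia genes found under their listed symbol, all 19 were tested, 7 rose and 0 fell, beside 2.72% of all tested genes that rose. Their median log2 fold change was 0.58. The remaining listed gene, Ero1a, an oxidase gene of the endoplasmic reticulum, is in the table under its older symbol Ero1l and is not in these counts. It rose 4.88-fold, from 30.0 and 43.1 CPM to 174 and 184 CPM (edgeR adjusted p = 0.000941). Adm, encoding the vasodilator peptide adrenomedullin, was at 5.16 and 2.34 CPM in controls and 13.7 and 18.3 CPM with sesaminol, a 4.36-fold rise (edgeR adjusted p = 0.0125) that was 6.79-fold without control replicate 1 and 3.09-fold without control replicate 2. Pfkfb3, a regulator of glycolysis, rose 2.61-fold and Egln1, the oxygen-sensing prolyl hydroxylase that marks HIF for degradation, rose 2.09-fold. Car9, a carbonic anhydrase gene, rose 2.15-fold but shares exons with Gm12454, whose count was 33.1% of its own. Hif1a, the HIF alpha subunit gene, stood at 129.9 and 165 CPM in controls and 219 and 188 CPM with sesaminol (edgeR adjusted p = 0.243). Hif1a shares exons with Gm15283, whose count was 101% of its own. Vegfa, which encodes an angiogenic growth factor, did not pass (266 and 329 against 363 and 282 CPM). Fewer of the 19 passed as higher when either control was left out, and more when either sesaminol library was. Both were so over all genes tested too.

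By the pattern over the 4 libraries, the genes nearest to Apln among the 11177 candidates (mean level 5 CPM or more, predicted genes with Gm or Rik symbols left out) were Cd68, Ndrg1, Fez1, Rgs2, Havcr2, Kif1a, Car6 and Enpp2. The measure was the root mean square difference of log2 CPM after each gene's own mean was subtracted, and it ran from 1.04 for Cd68 to 1.17 for Enpp2, so no gene was close. Cd68, a lysosomal membrane protein gene, went from 12 and 16 counts in controls to 135 and 322 counts with sesaminol. Enpp2, which encodes the secreted enzyme autotaxin, went from 5.76 and 3.80 CPM to 19.2 and 36.8 CPM. Like Apln, Enpp2 was lower in control replicate 2 than in control replicate 1. So were Havcr2 (1.90 against 2.28 CPM) and, by little, Cd68 (1.17 against 1.19 CPM), while Ndrg1, Fez1, Rgs2, Kif1a and Car6 were higher. Ndrg1 shares exons with Gm17035, whose count was 66.5% of its own.

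Fgf21 (ENSMUSG00000030827, chromosome 7, 45613886 to 45615490, minus strand) was lower with sesaminol. It had 1278 and 2050 counts in controls and 574 and 760 counts with sesaminol, or 127 and 149.7 CPM against 38.4 and 28.3 CPM. Both sesaminol libraries lay well below both controls. The log2 fold change was -2.06 ± 0.20 (SE), a 4.16-fold lower level, and 3.58-fold to 5.03-fold with 1 library left out.

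The same window before the start of Fgf21 (RefSeq, GRCm38.p6, chr7:45615491-45615740, minus strand) is shown because FGF21 is a known ATF4 target and the ATF4 genes are described next. Capitals mark matches to the words listed above.
Fgf21: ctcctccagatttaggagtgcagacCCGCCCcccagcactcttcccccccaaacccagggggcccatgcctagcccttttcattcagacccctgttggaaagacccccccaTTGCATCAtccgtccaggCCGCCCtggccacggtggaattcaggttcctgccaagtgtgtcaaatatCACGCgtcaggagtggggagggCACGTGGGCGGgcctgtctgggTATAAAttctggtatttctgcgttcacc
The ATF4 word lies on the opposite strand at -139 to -132, as TGATGCAA, and 3.45% of all windows hold a match to it. A TATA box lies at -28 to -23, and 7.59% of windows hold one. The hypoxia words match at -72 to -68, and on both strands at -50 to -45, where the E-box word CACGTG reads the same on either strand and overlaps a GC box at -45 to -40. Among the 14 promoter windows listed for 7 of the hormone genes, 1 held the ATF4 word and 7 held a hypoxia word. A match is a description of letters and not a binding site.

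FGF21 acts through FGF receptors together with the co-receptor beta-klotho (Klb). Fgfr1 was at 208 and 243 CPM in controls and 225 and 231 CPM with sesaminol, a log2 fold change of 0.01 ± 0.18. Fgfr2 was higher in every library, at 958 and 989 CPM in controls and 924 and 977 CPM with sesaminol (-0.03 ± 0.22). Fgfr3 was at 8.74 and 11.7 CPM in controls and 6.83 and 5.96 CPM with sesaminol (edgeR adjusted p = 0.250). Klb had 12, 10, 4 and 44 counts, and only sesaminol replicate 2 was above both controls. Fgfr4 fell 2.47-fold, from 16.7 and 17.2 CPM to 7.77 and 6.04 CPM (edgeR adjusted p = 0.0154), but missed the threshold without either control (0.079 and 0.126; range over its alternatives 1.18e-08 to 0.126). The other 5 tested genes of this list did not pass. The median log2 fold change of the list was -0.36. The genes with the pattern nearest to Fgf21 were Tnc, the matrix protein tenascin C, Fmnl1, a formin gene, and Myh2, a fast myosin heavy chain gene, at root mean square differences of 0.04, 0.07 and 0.08. Tnc went from 157 and 176 CPM to 48.7 and 35.3 CPM and shares exons with 8030451A03Rik.

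Gdf15 (ENSMUSG00000038508, chromosome 8, 70629393 to 70632456, minus strand) varied within the groups as much as between them. It stood at 75.5 and 120.1 CPM in controls and 160.03 and 84.8 CPM with sesaminol, and the groups overlapped. The log2 fold change was 0.32 ± 0.31 (SE) (edgeR adjusted p = 0.697). Its direction rested on 1 library: it was -0.25 without sesaminol replicate 1 (adjusted p = 0.295) and 0.71 without sesaminol replicate 2 (adjusted p = 9.94e-05), with adjusted p of up to 1 over the other alternatives. For its receptor, a complex of GFRAL and RET known from the brainstem, Gfral had 2, 16, 16 and 82 counts and Ret 12, 10, 6 and 34 counts, both highest in sesaminol replicate 2, and neither passed (edgeR adjusted p = 0.392 and 0.966). Gfral passed without sesaminol replicate 1 (4.02-fold higher, edgeR adjusted p = 0.00434), and its fold ran from 1.48 to 10.1 with 1 library left out, with adjusted p of up to 1.

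The ATF4 list differed between the libraries of a group in the same direction as Gdf15. Of its 16 genes, 0 passed by edgeR and 0 by DESeq2 (4 had an unadjusted edgeR p under 0.05), and the median log2 fold change was -0.14. In sesaminol replicate 1, 15 of the 16 were above sesaminol replicate 2, as were 58.6% of the 12878 tested genes averaging 5 CPM or more, and the median ratio was 1.61 for the list and 1.06 for those genes. All 16 were higher in control replicate 2 than in control replicate 1, as were 51.6% of those genes. The ratio of sesaminol replicate 1 to 2 was 1.89 for Gdf15 and 1.36 for Fgf21, and that of control replicate 2 to 1 was 1.59 and 1.18. Atf4 itself stood at 571, 627, 709 and 369 CPM, and Chac1, a glutathione-degrading enzyme gene, at 127, 142, 106 and 42.9 CPM. Some of the list passed when a sesaminol library was left out, mainly lower without replicate 1 and only higher without replicate 2. More of all genes tested passed in those fits too. These ratios were compared after the values of Gdf15 had been seen, and the genes share the same libraries.

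**Figure D3:**
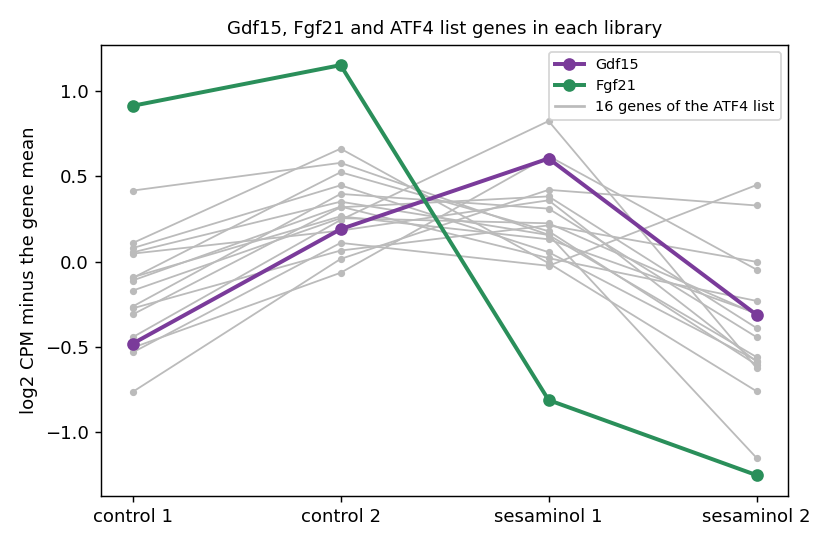
Level of Gdf15 (purple), Fgf21 (green) and the 16 genes of the ATF4 list (grey) in each library (x axis), as log2 CPM minus the gene's mean over the 4 libraries (y axis). All 16 grey lines go up from control 1 to control 2, and 15 go down from sesaminol 1 to sesaminol 2, as Gdf15 and Fgf21 do, and Fgf21 is also separated by group.

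Fndc5 (ENSMUSG00000001334, chromosome 4, 129136999 to 129144593) fell with sesaminol. It had 888 and 1237 counts in controls and 438 and 574 counts with sesaminol, or 88.2 and 90.3 CPM against 29.3 and 21.4 CPM. The controls agreed closely, and both sesaminol libraries were lower, sesaminol replicate 2 by more than sesaminol replicate 1. The log2 fold change was -1.82 ± 0.19 (SE), a 3.53-fold lower level (edgeR adjusted p = 0.00154), and it passed under every alternative run, with adjusted p from 1.63e-26 to 0.00181. The muscle markers named above moved in the same direction, and their part in the fall was not tested. Ppargc1a, the coactivator known to induce Fndc5 in muscle, was at 7.55 and 3.94 CPM in controls and 9.64 and 10.8 CPM with sesaminol and did not pass (edgeR adjusted p = 0.238). The integrin genes Itgav and Itgb5, whose products have been described as an irisin receptor, did not pass, at log2 fold changes of 0.35 ± 0.21 and 0.03 ± 0.18.

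Metrnl (ENSMUSG00000039208, chromosome 11, 121701544 to 121716306) stood at 60.6 and 46.4 CPM in controls and 70.3 and 71.4 CPM with sesaminol. The groups did not overlap, but Metrnl, with a log2 fold change of 0.41 ± 0.18 (SE), missed the threshold (edgeR adjusted p = 0.276, unadjusted p = 0.0488). Its paralog Metrn, meteorin, overlapped between the groups (22.1 and 18.3 against 24.9 and 20.1 CPM) and shares exons with Gm26694, which had the larger count. Kit, reported as a meteorin-like receptor in mouse heart, stayed between 0.937 and 2.98 CPM.

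Myostatin transcripts were scarce. Mstn (ENSMUSG00000026100, chromosome 1, 53061640 to 53068079) had 0 counts in either control, so levels of up to 0.298 and 0.219 CPM remain possible there. Sesaminol replicates 1 and 2 had 8 and 2 counts (0.536 and 0.0746 CPM). Sesaminol replicate 1 was above its 3-count level of 0.201 CPM and sesaminol replicate 2 below its own of 0.112 CPM. No fold is given. The exact Poisson intervals of the sesaminol libraries were 0.231 to 1.06 and 0.00903 to 0.269 CPM. In control replicates 1 and 2 such intervals ran from 0 to 0.366 and 0.269 CPM, so each met both sesaminol intervals. Against the 3-count limits of the controls, the interval of sesaminol replicate 1 began below 0.298 but above 0.219 CPM. Of 19 tested genes around myostatin, 1 rose and 2 fell, beside 2.72% and 3.24% of all genes tested. Tgfbr1, a type I receptor that myostatin can use, rose 1.87-fold, from 33.2 and 38.9 CPM to 62.4 and 72.1 CPM (edgeR adjusted p = 0.0176). Fstl3, an extracellular inhibitor of myostatin and activin, fell 2.03-fold (edgeR adjusted p = 0.0185) and shares exons with Prss57, whose count was 62.6% of its own. It missed the threshold with library totals alone (0.0535) and without control replicate 2 (0.130; range over its alternatives 2.97e-09 to 0.13). Bmp1, a metalloprotease gene of the family that frees myostatin from its propeptide, fell 1.93-fold (edgeR adjusted p = 0.0400). Fewer genes of this list passed when either control was left out, as over all genes tested. The type II receptor genes Acvr2a and Acvr2b had log2 fold changes of 0.06 ± 0.18 and 0.14 ± 0.56. Acvr2a shares exons with Orc4, whose count was 121% of its own. Fst, the inhibitor follistatin, was at 68.6 and 68.8 CPM in controls but at 17.9 and 66.7 CPM in the sesaminol libraries, which disagreed, and did not pass. Gdf11, the closest paralog of Mstn, was measured at 68.1 and 72.4 CPM in controls and 57.9 and 33.7 CPM with sesaminol (edgeR adjusted p = 0.208).

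Interleukin 15 itself did not pass, while Il2rb, which encodes a receptor chain through which it signals, fell. Il15 (ENSMUSG00000031712, chromosome 8, 82331632 to 82403222, minus strand) stood at 6.55 and 5.11 CPM in controls and 3.95 and 5.67 CPM with sesaminol, with overlapping groups. Its log2 fold change, -0.26 ± 0.36 (SE), did not pass (edgeR adjusted p = 0.802). Il15ra, the chain that presents interleukin 15, had 2, 10, 10 and 23 counts and did not pass (edgeR adjusted p = 0.784). Il2rb, the shared beta chain of the interleukin 2 and 15 receptors, had 33 and 48 counts in controls and 2 and 2 counts with sesaminol, or 3.28 and 3.51 CPM against 0.134 and 0.0746 CPM. Both sesaminol values were below the 3-count level. Il2rb fell (edgeR adjusted p = 0.00528, and from 1.17e-08 to 0.0359 over the alternatives), and the ratio of the pooled levels, control over sesaminol, was 35.6 with an exact 95% interval of 13.4 to 134, or 9.11 to 300.2 if mates were counted singly. Il2rg, the common gamma chain, had 50 and 70 counts in controls and 14 and 12 with sesaminol, a 7.51-fold fall (edgeR adjusted p = 0.0146). Leaving out control replicate 1 or 2 gave 0.0541 and 0.0872 (range over its alternatives 3.23e-09 to 0.0872). The fold was 11.4 without sesaminol replicate 1 and 5.31 without sesaminol replicate 2. The overlapping gene Gm20489 had the same 50, 70, 14 and 12 counts, so the reads were counted for both and cannot be assigned to either. The other 5 of the 7 genes in this list did not pass.

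**Figure D4:**
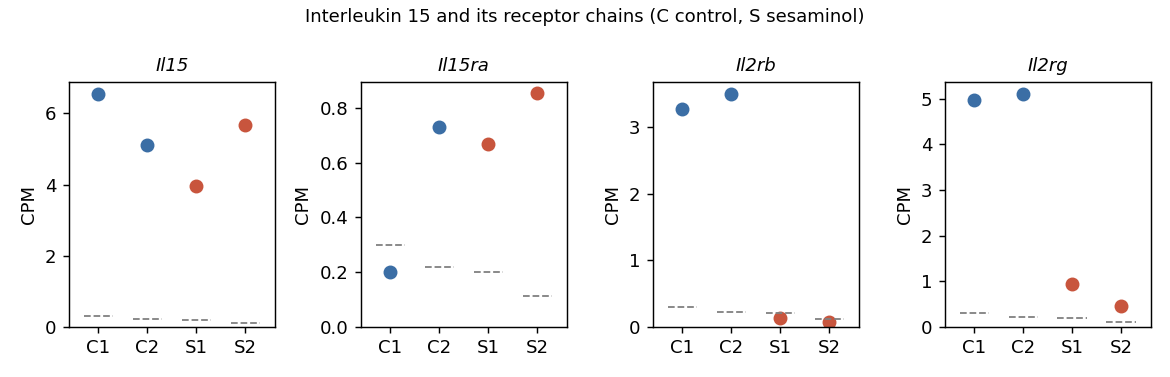
Level (y axis, CPM, from 0) of Il15, Il15ra, Il2rb and Il2rg in control (C1, C2, blue) and sesaminol (S1, S2, red) libraries; points are single libraries and grey dashes the level of 3 counts in each. Il2rb falls from 3.28 and 3.51 CPM to values under the dashes, while Il15 overlaps between the groups.

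These receptor chains are typical of lymphocytes. Ptprc, which encodes the leukocyte surface protein CD45, had 10 and 12 counts in controls and 8 and 41 with sesaminol, and the 5 macrophage and leukocyte markers summed to 20.8 and 17.2 CPM in controls and 25.8 and 34.1 CPM with sesaminol. Csf1r made up the largest part of this sum in every library. It shares exons with Hmgxb3, whose count was 354% of its own. Itgam shares exons with another row of the same symbol, whose count was 97.5% of its own. The sums may therefore include reads of other genes. Cd68 was the 1 of these 5 markers that passed, and it rose, while the other 4 overlapped between the groups. No marker particular to lymphocytes was listed, and the part of these cell types in the fall of Il2rb was not tested.

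Bdnf (ENSMUSG00000048482, chromosome 2, 109674700 to 109727007) stood at 33.0 and 38.1 CPM in controls and 42.7 and 49.3 CPM with sesaminol. The groups did not overlap, but Bdnf, with a log2 fold change of 0.37 ± 0.17 (SE), missed the threshold (edgeR adjusted p = 0.306, unadjusted p = 0.0595). The count is per gene, so transcripts from its 7 listed promoters could not be told apart. Its receptor gene Ntrk2 had 24 and 30 counts in controls and 12 and 98 with sesaminol, and Ngfr, the low-affinity receptor gene, had 4, 4, 0 and 2. Sort1, which encodes the sorting receptor sortilin that binds the BDNF precursor, fell 2.14-fold, from 18.1 and 23.4 CPM to 7.77 and 11.4 CPM (edgeR adjusted p = 0.0396). It missed the threshold without control replicate 2 (0.377; range over its alternatives 9.2e-08 to 0.377) and with library totals alone (0.0978). The other 6 tested neurotrophin genes did not pass.

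The order of the hormone genes was read per kilobase of exon, since genes of different length draw different numbers of reads. In controls Fgf21 was highest, at 145 ± 16.9 CPM per kb (SD, n = 2), followed by Gdf15 at 52.8 ± 17.1, Metrnl at 33.7 ± 6.30, Fndc5 at 32.3 ± 0.551, Bdnf at 5.72 ± 0.586, Il15 at 2.58 ± 0.451 and Apln at 0.566 ± 0.538 CPM per kb. Gdf15 and Metrnl, and Metrnl and Fndc5, did not differ beyond their spread, in that mean ± SD overlapped. With sesaminol Gdf15 was highest, at 66.1 ± 28.7 CPM per kb, followed by Metrnl at 44.7 ± 0.467, Fgf21 at 35.1 ± 7.51, Apln at 10.1 ± 0.0379, Fndc5 at 9.18 ± 2.03, Bdnf at 7.39 ± 0.754 and Il15 at 2.13 ± 0.537 CPM per kb. Here Gdf15 was within its spread of both Metrnl and Fgf21, and Apln and Fndc5, and Fndc5 and Bdnf, were within their spread of each other. Apln thus stood below Bdnf in both controls and above it in both sesaminol libraries on this scale. In CPM, Apln was below Bdnf with sesaminol too, at 32.0 and 31.8 against 42.7 and 49.3 CPM. The order therefore depended on the exon length used. For Bdnf that length was 6217 bases pooled over 11 transcripts, and for Apln it was 3149 bases of 1 transcript.

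Among 25 tested genes of other factors known to be secreted by muscle cells, 2 rose and 4 fell, beside the same 2.72% and 3.24% of all genes. Igf1 and Igf2, the insulin-like growth factors of muscle growth, fell 2.73-fold (43.2 ± 8.30 to 15.9 ± 3.06 CPM, edgeR adjusted p = 0.00574) and 2.78-fold (463 ± 17.8 to 167 ± 93.7 CPM, edgeR adjusted p = 0.0382). Igf2 was 4.74-fold lower without sesaminol replicate 1 and 1.98-fold lower without sesaminol replicate 2, and DESeq2 did not pass it (adjusted p = 0.134; range over its alternatives 5.99e-34 to 0.134). Lif and Ctf1, cytokines of the interleukin 6 family, fell 3.22-fold and 2.22-fold. Vegfb, a vascular growth factor gene, rose 1.97-fold. Angptl4, whose product inhibits lipoprotein lipase, rose 2.27-fold. Il6 did not pass and was under 1 CPM in all 4 libraries. The numbers that rose and that fell were smaller without either control and larger without either sesaminol library, as over all genes tested. The listed gene Chi3l1, a chitinase-like secreted protein gene, is in the table under the older symbol Chil1 and is not in these counts. It fell 4.13-fold, from 6.06 and 6.86 CPM to 1.21 and 1.86 CPM (edgeR adjusted p = 0.0220).

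Over the 10 lists around the hormones, with each gene once and without Ero1l and Chil1, 114 genes were tested, of which 10 rose, 10 fell and 94 did not pass, beside 2.72% higher and 3.24% lower among all genes tested. The median log2 fold change of the 114 was 0.04. The counts of higher and of lower genes were smaller when either control was left out and larger when either sesaminol library was. The same held over all genes tested.

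**Figure D5:**
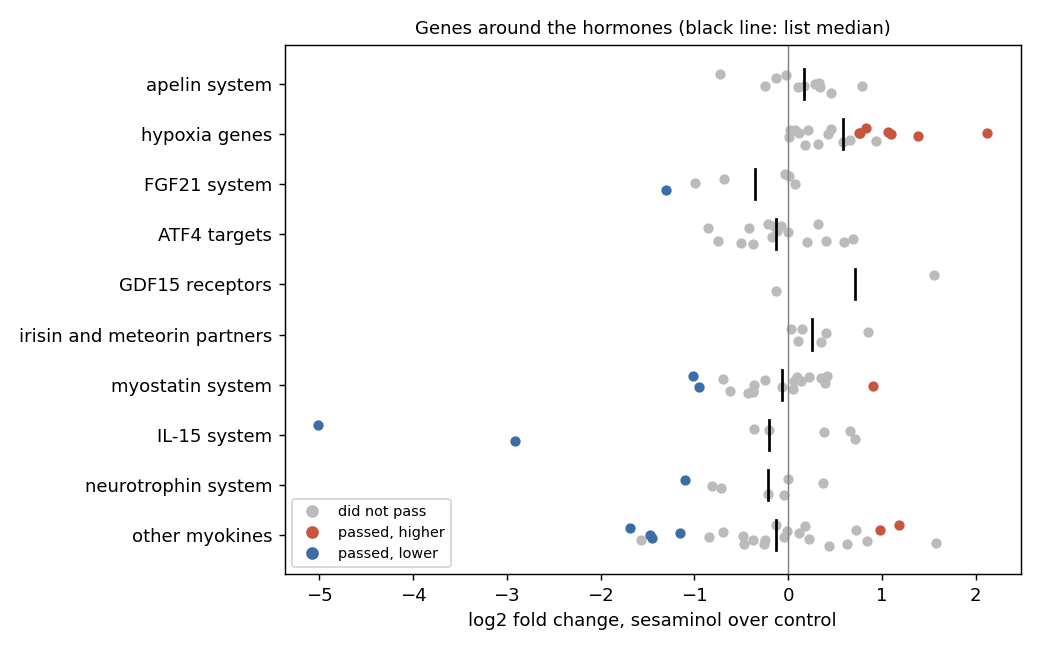
Log2 fold change, sesaminol over control (x axis), of the tested genes in the 10 lists around the hormones (y axis); red and blue points passed the all-gene test as higher and lower, grey points did not, and black lines are list medians. The 7 red points of the hypoxia list lie between 0.75 and 2.12, and Il2rb lies at -5.01.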

How the data were processed

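Poly(A)-selected RNA of 4 C2C12 libraries was sequenced, per the labels' protocols. Values in the table that the authors deposited are whole-number counts, not normalised. The submitters' processing notes name GRCm38 and, in no stated order, featureCounts, fastp, FastQC, edgeR, Picard and MultiQC. For the aligner, strand setting and annotation release the sources used here state nothing. Even numbers made up 75.8% to 79.6% of the values between 1 and 12, as when both mates of a pair are counted singly, so detection limits are also given for that case. Reads counted for overlapping genes cannot be told apart. An overlap is named where another gene shares exons and has at least 20% of the gene's count. No 2 libraries agreed within sampling noise. Chi-square per degree of freedom was 6.3 between the controls and 39.1 between the sesaminol libraries. Between a control and a sesaminol library it was 41.1 to 70.3.

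Genes were filtered with filterByExpr (minimum count 10, minimum total 15), scaled by TMM and tested across all 4 libraries by the quasi-likelihood F-test (glmQLFit, glmQLFTest) of edgeR 4.0.16 under R 4.3.3, two-sided, with Benjamini-Hochberg adjustment over 18998 genes and a threshold of 0.05; this is the edgeR adjusted p of the text. The SE of a log2 fold change is its size over the square root of F. The procedure was tested on simulated data. Alternatives were DESeq2 1.42.0, other scalings, no filter, halved counts, a replicate block and leaving out each library. The hormone genes and gene lists were chosen with earlier results of these data known. Of the lists, each gene that passed is counted, and up to 4 per list are named with the hormones' receptors; the 8 genes nearest to Apln and 3 nearest to Fgf21 were named by a pattern measure with a prior count of 2. Two-sided exact Poisson and binomial intervals cover counting error only. Positions and exon lengths are from GENCODE M21 (52403 of 52636 identifiers matched) and promoters from RefSeq (GRCm38.p6), which listed 7 of the 9 hormone genes. Of 128 listed symbols 2 (Ero1a and Chi3l1) were not in the table; their older symbols were looked up after the data were seen and are reported apart from the counts, without the alternatives or the overlap check. Genes of the lists named beyond this rule (Gnai2, Hif1a, Vegfa, Fst, Gdf11, Ppargc1a, Metrn, Atf4, Chac1, Apela, Igf2, Ctf1, Il6) were chosen after their values were seen.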

Additional observations from a re-analysis of the deposited data

How the results depend on the processing

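The fall of Fndc5 and the direction of Apln and Fgf21 held under all alternatives run. With no filter, 928 genes rose and 985 fell instead of 516 and 615, and 16 instead of 10 genes of the hormone lists fell. With a replicate block the counts were 893 and 982 over all genes and 16 falls in the lists; the numbers are shared by name only, and deviations of same-numbered libraries correlated at r = -0.0536 across genes, so the block was not used. With 1 library left out, 163 to 1918 genes rose and 276 to 2724 fell, 0 to 1 of the 5 hormone genes read by test rose (Gdf15, without sesaminol replicate 2), and 1 to 24 list genes rose and 3 to 31 fell. In these fits the lone library is assumed to vary like the other group. Apln and Fgf21 had no test and were judged by whether the fold change moved by more than the replicate spread. Of all single-gene comparisons with an alternative, 444 kept direction and stayed on the same side of the threshold or within that spread. Of the rest, 33 lost the call, 4 gained it, 2 moved by more than that spread and 20 turned direction. The last were log2 fold changes of genes that had not passed: Gdf15 from -0.25 to 0.71, and, with 1 library left out, Klb from -1.78 to 0.75 (-0.25 with the block), Fgfr1 from -0.10 to 0.13, Ret from -1.21 to 0.38, Acvr2a from -0.06 to 0.19, Acvr2b from -0.09 to 0.28, Ntrk2 from -1.49 to 0.64 (-0.01 with DESeq2 size factors, -0.04 by DESeq2, -0.29 with the block), Itgb5 from -0.04 to 0.08 and Kit from -0.69 to 0.93. Fgfr2 was at 0.04 with library totals alone. The cause was not tested. Depth limits Aplnr and Mstn, which stayed at a few counts.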
